A study of Mus musculus with 24 samples.

Results

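Hearts of Tm180/PLB KO mice were compared between 12 and 4 months of age with Affymetrix arrays of left ventricular tissue. The mice carried an α-tropomyosin transgene (Tm180) and lacked phospholamban (PLB KO). Arrays were taken by their titles, 3 at 4 months and 3 at 12 months, which made 6 of the 24 arrays of the series. The other 18 arrays, 3 per group, held nontransgenic (NTG), Tm180 and PLB KO hearts at the same ages. The series title names Tm180 as a model of familial hypertrophic cardiomyopathy and the phospholamban knockout as its rescue, and its design asked how expression moves over time. All 6 hearts carried both alleles, so neither allele can be separated within this comparison. The labels used here give no strain, no promoter for the transgene, no number of founder lines and no sex. They number the arrays as biological replicates, without saying whether each number was 1 animal.

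Tropomyosin lies along the actin filament and, with troponin, sets how calcium opens the filament to myosin. Phospholamban holds back SERCA2a, the pump that returns calcium to the sarcoplasmic reticulum, so a heart without it relaxes faster. Ageing mouse ventricle is known for rising β-myosin heavy chain, for slow gain of matrix and for changes in clock genes. Inflammatory and immediate-early genes are switched on within minutes to hours of a stimulus, largely through NF-κB and through kinase-driven factors, and are switched off again by inhibitors that they themselves induce.

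The sequences below are promoters of NF-κB-linked genes that were lower at 12 months, shown because many of the results below concern this group. Each is the RefSeq promoter (GRCm38.p6) of the gene, ending at the base before its annotated start, 5′ to 3′ on the gene's strand. Capitals mark matches to the κB pattern, GGG then any 2 bases then TTTCC, or its reverse complement. The genes encode the neutrophil chemokines Cxcl2 (chr5:90903779-90903898, plus strand) and Cxcl1 (chr5:90891125-90891244, plus strand), the cytokine Il6 (chr5:30012994-30013113, plus strand), the ubiquitin-editing inhibitor A20 (Tnfaip3, chr10:19015411-19015530, minus strand), the inhibitor IκBα (Nfkbia, chr12:55492648-55492767, minus strand) and the NF-κB subunit c-Rel (Rel, chr11:23770970-23771089, minus strand).
Cxcl2: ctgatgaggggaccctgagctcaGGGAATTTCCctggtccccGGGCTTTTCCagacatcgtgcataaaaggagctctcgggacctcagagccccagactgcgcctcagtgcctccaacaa
Cxcl1: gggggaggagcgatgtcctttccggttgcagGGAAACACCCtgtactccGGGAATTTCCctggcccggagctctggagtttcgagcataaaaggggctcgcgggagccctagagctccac
Il6: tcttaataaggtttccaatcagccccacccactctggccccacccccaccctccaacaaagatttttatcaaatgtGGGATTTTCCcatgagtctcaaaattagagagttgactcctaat
Tnfaip3: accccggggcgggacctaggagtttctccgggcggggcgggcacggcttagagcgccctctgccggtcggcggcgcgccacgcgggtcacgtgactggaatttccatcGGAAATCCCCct
Nfkbia: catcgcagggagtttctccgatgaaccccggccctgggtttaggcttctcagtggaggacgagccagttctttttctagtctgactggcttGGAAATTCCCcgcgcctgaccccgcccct
Rel: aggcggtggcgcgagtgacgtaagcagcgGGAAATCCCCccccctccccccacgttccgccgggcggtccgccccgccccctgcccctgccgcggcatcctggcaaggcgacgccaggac
The 2 matches in Cxcl2 began 97 and 78 bases before the start, and the match in Tnfaip3 began 12 bases before it. Within 250 bases before the start, the pattern occurred on either strand in 8 of 32 promoters that could be matched to the 40 tested genes of the NF-κB list (25%), and in 1.4% of all 27025 promoters. The pattern and the list were both chosen after the values had been seen, so these shares are a description only.

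Clock gene promoters are shown next because Per1, Tef and Per3 were lower and Arntl higher at 12 months. Capitals mark the E-box CACGTG, to which the CLOCK and BMAL1 proteins bind, in Per1 (chr11:69098749-69098948, plus strand) and Tef (chr15:81802473-81802672, plus strand). In Per3 (chr4:151044666-151044885, minus strand) they mark the D-box, searched as TTATGTAA or TTACGTAA, to which Dbp, Tef and Hlf bind.
Per1: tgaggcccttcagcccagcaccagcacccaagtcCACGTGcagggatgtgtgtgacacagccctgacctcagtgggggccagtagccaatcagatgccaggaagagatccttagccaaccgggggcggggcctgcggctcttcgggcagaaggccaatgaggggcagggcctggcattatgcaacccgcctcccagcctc
Tef: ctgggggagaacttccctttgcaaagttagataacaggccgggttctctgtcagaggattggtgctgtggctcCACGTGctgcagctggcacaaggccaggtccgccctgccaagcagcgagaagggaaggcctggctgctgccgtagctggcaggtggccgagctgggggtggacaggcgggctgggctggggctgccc
Per3: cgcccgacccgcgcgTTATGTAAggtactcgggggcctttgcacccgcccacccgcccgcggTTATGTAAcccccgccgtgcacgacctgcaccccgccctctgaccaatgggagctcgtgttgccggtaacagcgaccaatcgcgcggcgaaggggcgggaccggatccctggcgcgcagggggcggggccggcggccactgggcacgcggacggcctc
The E-box was present in 5 of 17 matched clock promoters (29.4%) against 6.05% of all promoters, and the D-box in 1 of 17 (5.88%) against 0.962%. A last sequence is the mature mmu-miR-155-5p (chr16:84714143-84714165, plus strand), an NF-κB-induced microRNA whose host transcript was among the lower ones, with its seed, bases 2 to 8, in capitals.
mmu-miR-155-5p: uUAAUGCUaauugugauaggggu

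All values are log2 levels after robust multi-array averaging (RMA), so a difference of 1 is 2-fold. Phospholamban was checked first. On the 4-month arrays of replicates 1, 2 and 3, Pln was 7.37, 7.63 and 7.05, and on the 12-month arrays it was 6.4, 5.94 and 6.64. The NTG means were 13.75 ± 0.0651 at 4 months and 13.79 ± 0.0702 at 12 months (SD, n = 3), so all 6 arrays carried a much lower phospholamban signal. Remaining Pln signal was lower at 12 months without overlap, by -1.02 ± 0.324 (SE; limma adjusted p = 0.995), and the labels do not say which part of the gene was deleted. Tpm1, the α-tropomyosin gene, was 13.27, 13.12 and 13.14 at 4 months and 13.27, 13.20 and 13.21 at 12 months, against NTG means of 12.82 and 12.86. The arrays of both ages overlapped for Tpm1 (0.05 ± 0.0889, adjusted p = 1). Over 13 ventricular cardiomyocyte markers the mean level was 12.23 to 12.27 on the 4-month arrays and 12.18 to 12.28 on the 12-month arrays.

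The 6 arrays had medians of 5.7771 to 5.8527 over all probe sets, and their number limits the precision. Pairs of arrays within a group correlated at 0.9753 to 0.9827, and pairs across the ages at 0.9713 to 0.9871. The first 2 principal components, with 32.19% and 26.21% of the variance, did not separate the ages. On the first, replicate 3 lay at 16.722 at 4 months and 24.6 at 12 months, and the remaining arrays were negative. Replicate 2 at 12 months stood apart in several ways. Its Y-linked transcripts averaged 7.72 against 3.07 to 3.55 on the remaining arrays, and its Xist was 4.17 against 9.56 to 10.07. By these transcripts replicate 2 at 12 months differed in sex from the remaining arrays, so sex was not balanced between the ages. Its immediate-early genes averaged 8.08, against 7.06 and 7.15 on the other 12-month arrays and 8.16, 8.45 and 8.29 on the 4-month arrays. Its complement gene C7 was 9.95, against 6.64 and 6.99 on the other 12-month arrays and 6.68 to 6.92 at 4 months. Replicate 2 at 4 months has a title, a description and an age field of 4 months and a source name of 12 months. It was kept at 4 months. On the first 2 principal components it lay nearest to replicate 2 at 12 months.

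Few genes passed the test across all genes. In the fit over all 24 arrays, 1 of 15918 genes differed between the ages at a Benjamini-Hochberg adjusted p under 0.05 in limma (0.00628% of those tested), and it was lower at 12 months. Before adjustment, 462 genes (2.9%) had a p under 0.05, 205 higher (1.29%) and 257 lower (1.61%) at 12 months. The arrays of the ages did not overlap for 589 genes that were higher (3.7%) and 527 that were lower (3.31%), which is the background for the counts of gene groups below. At least a 1.5-fold difference was measured for 227 genes, of which 162 did not overlap. When the 6 arrays were fitted alone, 41 genes (0.258%) were called, 2 higher (0.0126%) and 39 lower (0.245%). The spread of many of these genes was wider in the other genotypes. For Tnfaip3 the residual SD was 0.993 over 24 arrays and 0.516 over the 6. The count of 41 rested on single arrays. It was 118 without replicate 2 at 12 months, 42 without both arrays of replicate 2, 10 without replicate 1 and 1 without replicate 3 at 12 months, and 21, 0 and 3 without replicates 1, 2 and 3 at 4 months. None of the 41 overlapped between the ages, so leaving out arrays could not reverse their direction.

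The gene that passed was Slc16a13, which encodes a monocarboxylate transporter. Its level was 8.62, 9.25 and 9.30 at 4 months and 6.79, 7.40 and 6.91 at 12 months. Every 4-month array was above every 12-month array, with more than 1 log2 unit between the nearest ones. Slc16a13 fell by 2.03 ± 0.310 (SE) on the log2 scale, 4.07-fold, with an adjusted p of 0.0325 over 24 arrays and 0.0131 over the 6 arrays alone. The exact two-sided permutation test of the difference of means gave p = 0.1, the smallest that 3 against 3 allows. The call over 24 arrays was lost without any of the 3 arrays at 12 months (adjusted p = 0.358, 0.0522 and 0.174 without replicates 1, 2 and 3) or without replicate 2 or 3 at 4 months, and without both arrays of replicate 2 (0.234). It was also lost without NTG replicate 3 at 12 months, Tm180 replicate 1 at 12 months or any of the 3 Tm180 arrays at 4 months. Across the study Slc16a13 was highest at 4 months in Tm180/PLB KO hearts (9.06 ± 0.378, SD, n = 3) and next in PLB KO hearts (8.38 ± 0.348). It lay between 7.02 and 7.37 in NTG and Tm180 hearts of both ages, and at 12 months it was 7.23 ± 0.596 in PLB KO hearts and 7.03 ± 0.321 in Tm180/PLB KO hearts. These 6 group means differed by less than the spread within NTG hearts at 4 months (SD 0.689).

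The genes on either side of Slc16a13 in RefSeq gene order showed the same direction. Bcl6b, which encodes a transcriptional repressor, was 9.30, 9.69 and 9.56 at 4 months and 8.13, 8.32 and 8.27 at 12 months, without overlap. Its difference was -1.28 ± 0.241, with an adjusted p of 0.172 over 24 arrays and 0.0131 over the 6 arrays. Slc16a11, a second monocarboxylate transporter gene, was 6.09, 6.59 and 6.51 at 4 months and 5.58, 5.86 and 5.83 at 12 months. It also did not overlap, with a smaller difference of -0.64 ± 0.161 (adjusted p = 0.605). Of 9 tested genes among the 5 on each side of Slc16a13, these 2 were the ones lower without overlap, and the remaining 7 overlapped. Bcl6b was also lower at 12 months in PLB KO hearts (9.04 ± 0.345 against 7.89 ± 0.361) and differed by -0.48 in NTG and -0.03 in Tm180 hearts.

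**Figure D1:**
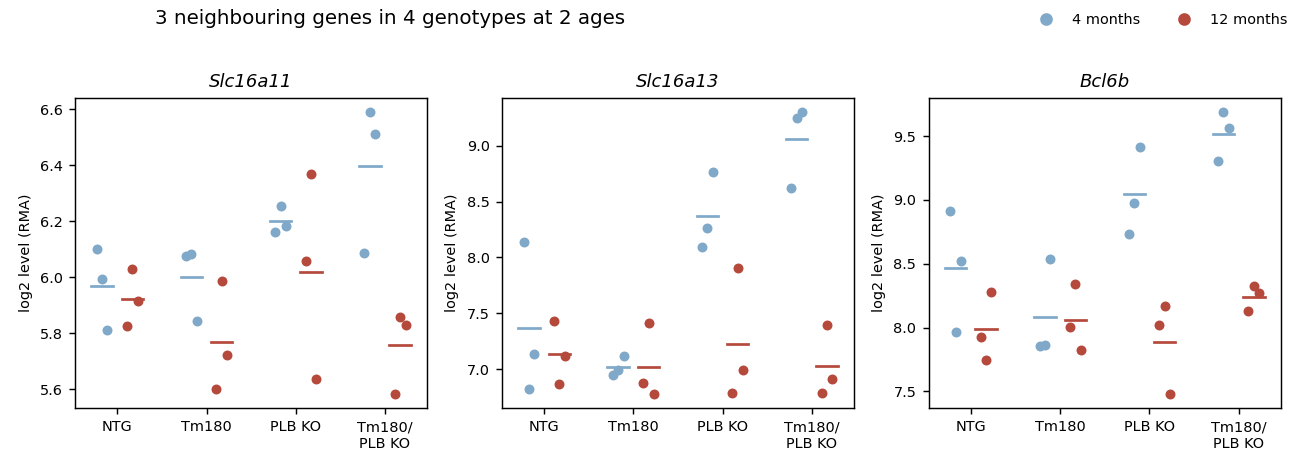
Log2 levels of Slc16a11, Slc16a13 and Bcl6b (vertical axes) on each array of the 4 genotypes at 4 months (blue) and 12 months (red), with bars at the group means of 3 arrays. In Tm180/PLB KO hearts the 3 red points lie below the 3 blue points for each gene, and Slc16a13 reaches its highest mean, 9.06, there at 4 months.

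Cytokine, adhesion and NF-κB genes had lower means at 12 months for most members. Cxcl2, a neutrophil chemokine, was 7.48, 8.44 and 7.73 at 4 months and 4.12, 5.92 and 4.68 at 12 months. The difference was -2.97 ± 0.735 (adjusted p = 0.598 over 24 arrays, 0.0215 over 6). Il6, an acute-phase cytokine, was 6.52, 7.46 and 6.73 at 4 months and 3.20, 5.19 and 2.90 at 12 months (-3.14 ± 1.05, adjusted p = 1 and 0.0333). For both genes the groups were apart, and replicate 2 was the highest array of its age at either age. Ccl3, a macrophage chemokine, was 6.23, 6.75 and 6.85 against 4.10, 5.01 and 4.35 (-2.13 ± 0.454, adjusted p = 0.544 and 0.0131). Tnf, the cytokine that gives its name to the family, was 6.54, 7.32 and 6.64 against 5.70, 5.6 and 5.53 (-1.22 ± 0.327, adjusted p = 0.67 and 0.0366). Neither gene overlapped between the ages. Of 26 tested cytokines and chemokines, 19 had lower and 7 higher means at 12 months, 9 were lower without overlap (34.6%, beside 3.31% of all genes) and 0 higher. The list's median was -0.19, beside 0.01 over all genes, and -0.43 without replicate 2 at 12 months. The monocyte chemokine Ccl2 (7.46, 8.53 and 8.33 against 6.06, 7.52 and 5.85) overlapped because of that array. In bulk tissue, fewer cells of a type and less RNA per cell cannot be told apart.

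Endothelial adhesion molecules, which arrest leukocytes on the vessel wall, were lower too. Sele (E-selectin) was 9.59, 10.31 and 9.80 at 4 months and 5.76, 8.18 and 5.90 at 12 months. It had the largest difference of any gene tested in absolute size, -3.28 ± 1.08, or 9.73-fold (adjusted p = 1 over 24 arrays and 0.0333 over 6). Icam1 was 9.58, 10.40 and 10.02 against 6.78, 8.21 and 7.26 (-2.58 ± 0.711, adjusted p = 0.701 and 0.0215). Vcam1 was 9.83, 10.30 and 9.76 against 7.84, 8.78 and 7.52 (-1.92 ± 0.592, adjusted p = 0.902 and 0.0296). All 3 genes were lower on every 12-month array, and replicate 2 was nearest to the 4-month arrays. General endothelial markers differed in both directions. Of 18 tested, 10 had higher and 8 lower means at 12 months, with a median of 0.12. Without overlap, 4 were higher (22.2%) and 2 lower (11.1%), beside 3.7% and 3.31% of all genes. Pecam1 and Cdh5 differed by -0.08 and -0.05. Cldn5, a tight junction gene, was among the lower ones at 8.72, 8.57 and 8.68 against 7.88, 7.80 and 7.63 (-0.89 ± 0.275, adjusted p = 0.902 and 0.0307), without overlap.

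The inhibitors and subunits of the NF-κB pathway were lower as well. Tnfaip3 was 9.33, 9.72 and 9.38 at 4 months and 6.23, 7.32 and 6.02 at 12 months, a gap of over 2 log2 units between the nearest arrays. Its difference was -2.96 ± 0.720 (adjusted p = 0.598 over 24 arrays and 0.0115 over 6). Nfkbia was 10.23, 10.57 and 10.22 against 8.36, 9.44 and 8.30 (-1.64 ± 0.570, adjusted p = 1 and 0.0383). Nfkbiz, a nuclear IκB protein, was 8.58, 8.84 and 8.64 against 6.47, 7.50 and 6.45 (-1.88 ± 0.568, adjusted p = 0.873 and 0.0215). Both genes were lower on each 12-month array. Birc3, an apoptosis inhibitor and ubiquitin ligase, was 7.87, 7.92 and 8.32 against 6.66, 6.95 and 6.76 (-1.25 ± 0.301, adjusted p = 0.598 and 0.0215). Rel was 8.87, 8.59 and 8.69 against 7.94, 7.81 and 7.62 (-0.93 ± 0.258, adjusted p = 0.701 and 0.0333). These 2 genes did not overlap, and their 12-month arrays lay close together. The Mir155 host transcript was 5.48, 5.94 and 5.73 against 5.24, 5.03 and 5.27 (-0.53 ± 0.154, adjusted p = 0.774), lower without overlap and close to the dim limit of 4.83. Of 40 tested genes in a list of the pathway and its targets, drawn up after the values were seen, 39 had lower means at 12 months and 28 did not overlap (70%). The list's median was -1.08, and 18 of its genes were among the 39 called lower with the 6 arrays alone. Without replicate 2 at 12 months the median was -1.16 and 33 of 40 did not overlap, against 7.74% of all genes.

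Some further immune genes, named for a small p or after their values were seen, were lower without overlap. Nlrp3, the inflammasome sensor, was 5.50, 5.80 and 5.67 at 4 months and 4.15, 4.72 and 4.25 at 12 months (-1.28 ± 0.344, adjusted p = 0.67 over 24 arrays and 0.0215 over 6). Clec4e, a C-type lectin receptor, differed by -1.78 ± 0.451 and Tlr2, a Toll-like receptor, by -0.94 ± 0.261, both without overlap. Ccrl2, a chemerin-binding receptor, was 8.47, 7.88 and 8.01 against 7.01, 6.92 and 6.53. Icosl, the ligand of the T cell receptor ICOS, was 8.25, 7.77 and 8.20 against 6.80, 7.27 and 6.58. Both were lower on each 12-month array, by -1.30 ± 0.307 and -1.19 ± 0.283 (adjusted p = 0.598 each). Macrophage markers are given beside them. Over 26 macrophage and myeloid markers the mean level was 6.89 to 7.0 on the 4-month arrays and 6.87 to 7.23 on the 12-month arrays, 20 had higher means at 12 months, 1 was higher and 1 lower without overlap (3.85% each) and the median difference was 0.12. The highest 12-month mean was that of replicate 2, and the median was 0.02 without it and -0.01 without both arrays of replicate 2. Over 12 tested T, B and NK cell markers the mean was 5.42 to 5.72 at 4 months and 5.40 to 5.53 at 12 months, with a median difference of -0.07.

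**Figure D2:**
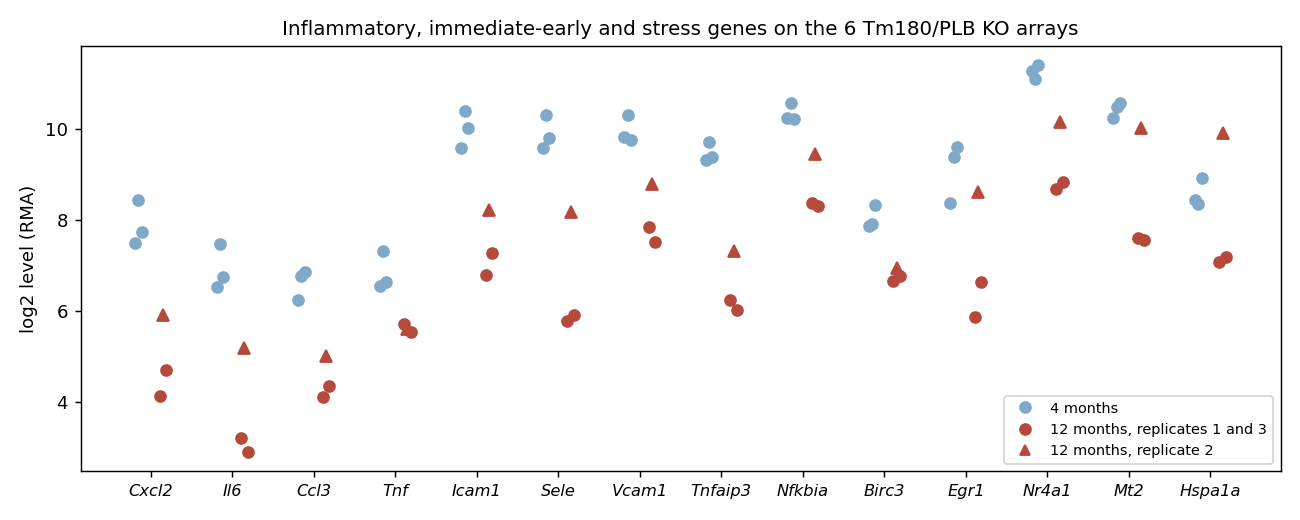
Log2 levels (vertical axis) of 14 inflammatory, immediate-early and stress genes on the 3 Tm180/PLB KO arrays of each age, with replicate 2 at 12 months drawn as a triangle. The 12-month arrays lie below the 4-month arrays for Cxcl2 through Birc3, while the triangle reaches or passes the blue points for Egr1 and Hspa1a.

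Immediate-early genes, transcription factors and regulators that respond to a stimulus without new protein synthesis, had a median difference of -0.94 over 29 tested. Of these, 23 had lower means at 12 months, 12 were lower without overlap (41.4%) and 0 higher. Nr4a1, an orphan nuclear receptor, was 11.29, 11.10 and 11.40 at 4 months and 8.68, 10.16 and 8.84 at 12 months (-2.04 ± 0.978, adjusted p = 1 over 24 arrays and 0.0333 over 6). Fos, a subunit of the AP-1 factor, was 7.76, 7.89 and 8.29 against 5.46, 7.22 and 6.16 (-1.70 ± 0.726, adjusted p = 1 and 0.139). Both were lower on all 12-month arrays, with replicate 2 between the groups. Egr1, a zinc finger factor, was 8.38, 9.38 and 9.59 against 5.87, 8.61 and 6.64, so that replicate 2 at 12 months lay above replicate 1 at 4 months. Dusp1, a phosphatase that turns off MAP kinases, was 11.02, 11.21 and 11.28 against 9.83, 10.50 and 10.10 (-1.03 ± 0.373, adjusted p = 1 and 0.0518), without overlap. Klf2, Klf4 and Klf6 differed by 0.21, 0.16 and 0.05. Without replicate 2 at 12 months the list's median was -1.34. In that setting 22 of 29 were lower without overlap (75.9%, beside 7.74% of all genes) and 2 higher (6.9%, beside 8.56%). The list's mean level stood between 8.16 and 8.45 on the 4-month arrays. PLB KO hearts at 4 months were alike, at 7.95 to 8.64, with a group mean of 8.29 beside 8.30. Each of the remaining groups held at least 1 array at or below 7.0615, and each also held a higher one. At 12 months the highest array was 8.49 in PLB KO, 8.40 in Tm180 and 7.75 in NTG hearts. At 4 months it was 7.87 in NTG and 7.85 in Tm180 hearts.

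Genes that respond to glucocorticoids had a median of -0.64, with 18 of 20 lower in mean and 9 lower without overlap (45%). Mt2, a metal-binding metallothionein, was 10.25, 10.49 and 10.57 at 4 months and 7.60, 10.03 and 7.56 at 12 months. The 12-month arrays did not reach the 4-month ones, and replicate 2 came within 0.3 of them (-2.04 ± 0.861, adjusted p = 1). Zbtb16, a glucocorticoid-induced zinc finger repressor, was 9.77, 8.84 and 9.62 against 8.26, 8.78 and 8.23 (-0.99 ± 0.389, adjusted p = 1). Its groups were apart by less than 0.1. Tsc22d3, another such target, differed by -0.16. The list shares Per1, Nfkbia and Dusp1 with the lists above and below, and its median was -0.95 without replicate 2 at 12 months and -1.04 without both arrays of replicate 2. Heat shock and chaperone genes had a median of -0.02 over 22, with 0 that did not overlap. Without replicate 2 at 12 months the median was -0.14 and 7 of 22 were lower without overlap (31.8%, beside 7.74% of all genes). Hspa1a, an inducible chaperone, was 8.43, 8.35 and 8.92 against 7.08, 9.91 and 7.17, with its highest value on replicate 2 at 12 months.

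Among circadian clock genes, Arntl was higher and most others were lower at 12 months. Arntl, which encodes BMAL1, was 5.69, 5.74 and 5.65 at 4 months and 7.07, 6.47 and 6.79 at 12 months. The 4-month arrays lay within 0.1 of each other and below all 12-month arrays, with a difference of 1.08 ± 0.238, or 2.12-fold (adjusted p = 0.594 over 24 arrays, 0.0307 over 6). Clock, its partner, was 8.25, 8.09 and 8.27 against 8.68, 8.38 and 8.44 (0.30 ± 0.143, adjusted p = 1), also without overlap. Some of the repressors that this pair drives had the other sign. Per1 was 8.55, 8.68 and 9.05 against 7.26, 8.12 and 7.31 (-1.20 ± 0.404, adjusted p = 1), Per3 differed by -0.42 ± 0.201 and Cry2 by -0.29 ± 0.140, each without overlap. Tef, an output factor, was 8.84, 8.88 and 8.79 against 8.40, 8.62 and 8.48 (-0.33 ± 0.127, adjusted p = 1). Per2 and Hlf differed by -0.55 and -0.39 and overlapped. Nr1d1, the repressor of Arntl, had the same sign as Arntl, with overlap, at 8.28, 9.79 and 9.49 against 9.55, 10.11 and 10.39. Dbp differed by 0.04, so these 2 did not pair with Tef. In all, 6 of 20 clock genes were lower (30%) and 3 higher (15%) without overlap, with a median of -0.26. The labels used here give no hour of tissue collection, so age and hour cannot be told apart. Arntl was higher at 12 months in NTG hearts by 0.74, in PLB KO hearts by 0.79 and in Tm180 hearts by 0.21, while in the same order Tef differed by -0.34, -0.22 and -0.15 and Per1 by 0.00, -0.55 and -0.15.

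**Figure D3:**
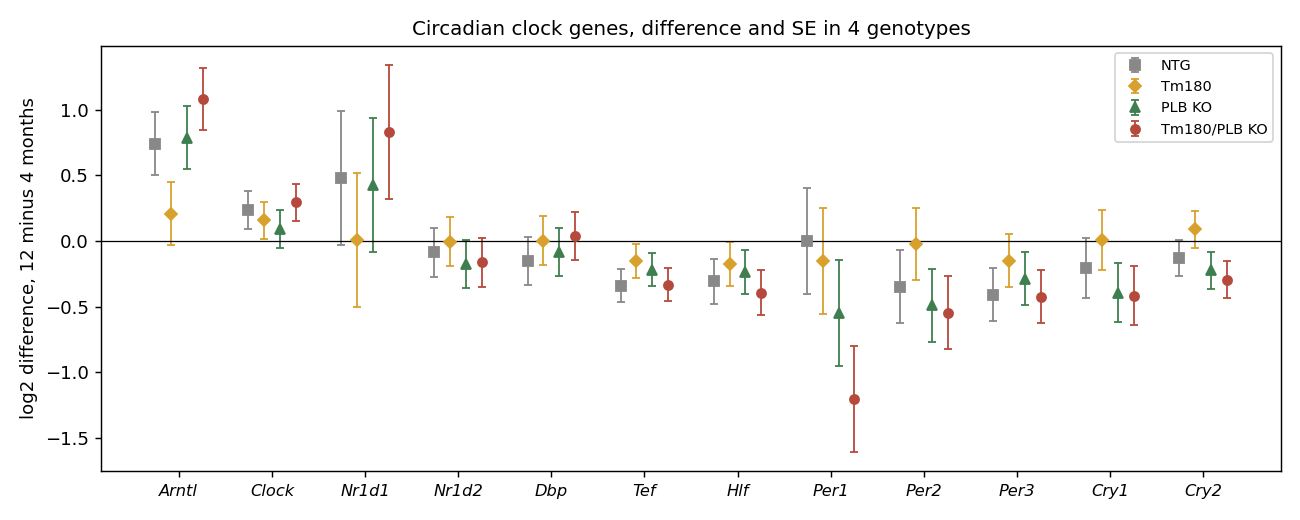
Difference of 12 minus 4 months (log2, vertical axis) with its standard error for clock genes in the 4 genotypes, each from 3 arrays per age. Arntl and Clock are above 0 in all 4 genotypes, and in Tm180/PLB KO hearts Per1 has the lowest value, -1.20.

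Hypertrophy genes, which ventricles re-express under load or with age, were mostly somewhat higher. Myh7, β-myosin heavy chain, was 11.28, 11.62 and 11.47 at 4 months and 12.28, 12.11 and 12.27 at 12 months. The groups were apart by about 0.5, and the difference was 0.77 ± 0.207, or 1.70-fold (adjusted p = 0.67 over 24 arrays, 0.0765 over 6). Myh6, the α-heavy chain of the adult mouse heart, overlapped (-0.03 ± 0.0841). Nppb, B-type natriuretic peptide, was 11.03, 11.53 and 10.78 against 12.05, 11.81 and 11.53 (0.68 ± 0.257, adjusted p = 1), with its lowest 12-month array just at the highest 4-month array. Nppa, the atrial peptide, overlapped (0.20 ± 0.280), as did the skeletal actin Acta1 (-0.12 ± 0.339). Of 21 hypertrophy genes, 16 had higher means, 3 were higher without overlap (14.3%) and the median was 0.13. It was 0.07 without replicate 2 at 12 months. At both ages Nppa was above NTG hearts of that age, by 2.34 at 4 months (adjusted p = 0.000262) and 2.14 at 12 months (adjusted p = 0.000392), so its level was already high at the younger age. Myh7 was above NTG hearts at 4 months by 1.21 (adjusted p = 0.0118), and those arrays are shared with the age comparison.

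Calcium handling genes differed little in the median. Of the list's 28 tested genes, 19 had lower means at 12 months. Without overlap, 2 were lower (7.14%) and 1 higher (3.57%), beside 3.31% and 3.7% of all genes. The list includes Pln. The list's mean level was lower on every 12-month array (8.83 to 8.85) than on any 4-month array (8.91 to 8.95). Over 28 tested genes the median was -0.04, and the pump Atp2a2 (13.37 ± 0.0511 against 13.33 ± 0.0509, SD, n = 3) and the release channel Ryr2 (11.78 ± 0.142 against 11.63 ± 0.226) overlapped. Ryr3, a ryanodine receptor that is scarce in ventricle, is not on the calcium handling list. It was 5.30, 5.50 and 5.69 at 4 months and 6.37, 7.26 and 6.51 at 12 months. Its groups were well apart, with a difference of 1.22 ± 0.283, or 2.33-fold (adjusted p = 0.598 over 24 arrays and 0.0734 over 6). Casq1, the skeletal form of the calcium store protein calsequestrin, was 9.95, 10.20 and 10.45 against 9.95, 9.46 and 9.85 (-0.44 ± 0.231, adjusted p = 1), just without overlap. Kcna5, a repolarising potassium channel, was 8.05, 7.99 and 8.0 against 7.26, 7.79 and 6.77 (-0.74 ± 0.363, adjusted p = 1), lower on each 12-month array.

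Vascular peptide genes differed in both directions. Edn1, the vasoconstrictor endothelin, was 5.95, 5.97 and 5.84 at 4 months and 6.96, 6.36 and 6.68 at 12 months (0.75 ± 0.219, adjusted p = 0.779). Ednrb, an endothelin receptor, was 8.24, 8.12 and 8.30 against 7.58, 8.10 and 7.20 (-0.59 ± 0.258, adjusted p = 1). Both were without overlap, Ednrb by only 0.02. Ramp3, a partner that turns the calcitonin-like receptor into an adrenomedullin receptor, was 7.30, 7.16 and 7.48 against 6.45, 6.62 and 6.69. Its groups were apart, with -0.73 ± 0.163 (adjusted p = 0.594 over 24 arrays and 0.102 over 6). The receptor itself, Calcrl, differed by 0.20 and the ligand Adm by 0.29. Npr3, the natriuretic peptide clearance receptor, was 7.37, 7.62 and 7.49 against 7.87, 8.35 and 7.79 (0.51 ± 0.194, adjusted p = 1), higher without overlap. Rgs2, which dampens Gq signalling, was 8.42, 7.53 and 8.15 against 7.02, 7.28 and 6.84 (-0.99 ± 0.347, adjusted p = 1), without overlap. Of 22 natriuretic, vascular and renin system genes, 3 were higher (13.6%) and 2 lower (9.09%) without overlap, and the median was 0.05.

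**Figure D4:**
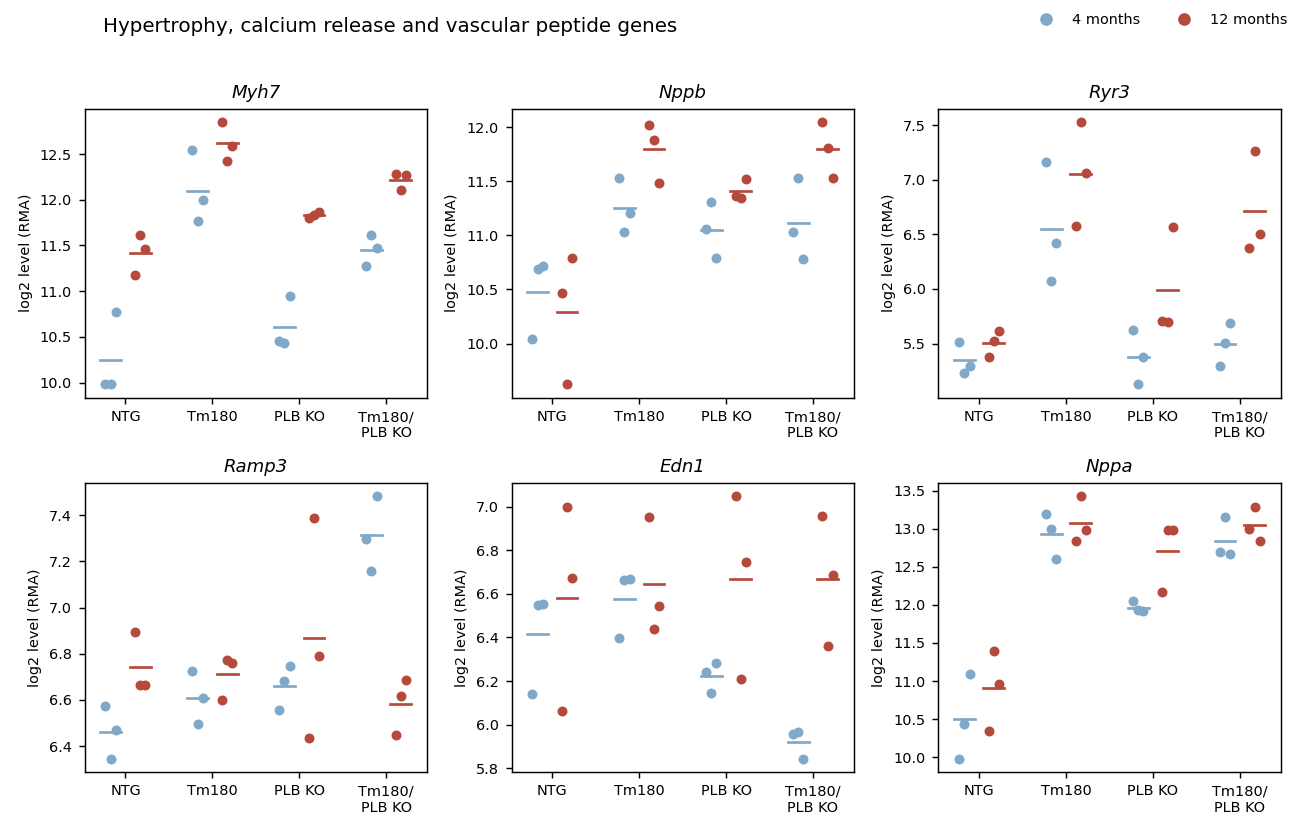
Log2 levels (vertical axes, each with its own range) of Myh7, Nppb, Ryr3, Ramp3, Edn1 and Nppa on each array, by genotype and age, with bars at the means of 3 arrays. In Tm180/PLB KO hearts the red and blue points are apart for Myh7, Ryr3, Ramp3 and Edn1 and overlap for Nppa.

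Matrix and fibroblast genes were slightly higher. Of 60 extracellular matrix genes, 39 had higher means at 12 months, 8 were higher without overlap (13.3%) and 1 lower, and the median was 0.09. The median depended on single arrays, at 0.05 without replicate 2 at 12 months and 0.00 without replicate 1 at 4 months. The fibrillar collagens Col1a1, Col1a2 and Col3a1 differed by 0.00, 0.01 and 0.07. Thbs4, a matrix protein of stressed heart, was 7.07, 7.51 and 7.37 at 4 months and 7.80, 8.07 and 7.95 at 12 months (0.62 ± 0.353, adjusted p = 1). Mmp14, a membrane matrix metalloproteinase, was 7.47, 7.92 and 8.03 against 8.45, 8.20 and 8.52 (0.58 ± 0.227, adjusted p = 1). Both were higher without overlap. Adamts1, a secreted protease, went the other way at 10.005, 9.90 and 10.08 against 8.39, 9.05 and 7.76 (-1.60 ± 0.679, adjusted p = 1 over 24 arrays and 0.0383 over 6). Thbs1 was 11.45, 11.34 and 11.06 against 8.32, 11.97 and 8.32, with its highest value of the 6 on replicate 2 at 12 months. Of 16 resting fibroblast markers, 6 were higher without overlap (37.5%), among them Dpep1 (0.58), Apod (0.55) and Pdgfra (0.39), and the median was 0.08. Of 16 markers of activated fibroblasts, 3 were higher without overlap (18.8%), and their median of 0.19 was 0.05 without replicate 2 at 12 months. Postn, also on that list, overlapped at 9.73 ± 0.134 against 9.90 ± 0.131 (SD, n = 3).

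Complement and antigen presentation genes were higher for some members. C4b was 6.11, 6.66 and 6.45 at 4 months and 6.87, 7.86 and 7.35 at 12 months (0.95 ± 0.295, adjusted p = 0.902). C1s1, a protease of the classical pathway, was 6.79, 6.33 and 6.63 against 7.20, 7.53 and 7.08 (0.69 ± 0.202, adjusted p = 0.779), and its inhibitor Serping1 differed by 0.41 ± 0.147. These 3 did not overlap, out of 18 complement and acute-phase genes (16.7%) with a median of 0.15, which was 0.03 without replicate 2 at 12 months. The 3 C1q chains differed by 0.15 to 0.17. Among 13 antigen presentation genes, Cd74 (0.47), H2-Ab1 (0.49) and B2m (0.21) were higher without overlap (23.1%, beside 3.7% of all genes). The peptide transporter Tap1 was lower (-0.32), and 1 gene of the list was lower without overlap (7.69%, beside 3.31%). The list's median was 0.06, beside age medians of 0.39 in NTG, 0.24 in PLB KO and 0.01 in Tm180 hearts.

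Energy metabolism differed little. Of 54 oxidative phosphorylation genes, 44 had lower means at 12 months, the range was -0.19 to 0.14 and 0 were without overlap. Their median of -0.0337 became 0.015 without replicate 3 at 12 months and -0.0867 without replicate 3 at 4 months. The 32 fatty acid oxidation genes split evenly, 16 up and 16 down in mean, with a median of -0.01. Tricarboxylic acid cycle genes had a median of -0.05 over 20. Of 24 ketone and amino acid genes, 18 had lower means and 5 were lower without overlap (20.8%). Prodh, which oxidises proline, was 8.29, 8.19 and 8.19 against 7.83, 7.84 and 7.82 (-0.39 ± 0.110, adjusted p = 0.701), Gpt2, an alanine aminotransferase, differed by -0.48 ± 0.168 and Mthfd1l, a mitochondrial folate enzyme, by -0.58 ± 0.193. In glycolysis, Pfkfb3, an inducible activator of the pathway, was 8.53, 8.82 and 9.10 against 6.48, 7.98 and 6.33 (-1.89 ± 0.737, adjusted p = 1), without overlap, while the median of 32 genes was -0.04.

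A few higher genes lay outside these groups. Casp12, an inflammatory-type caspase, was 6.72, 6.64 and 6.68 at 4 months and 7.89, 7.57 and 7.30 at 12 months (0.90 ± 0.233, adjusted p = 0.668). Inmt, a methyltransferase, was 6.64, 6.23 and 6.18 against 8.26, 7.56 and 7.76 (1.51 ± 0.513, adjusted p = 1 over 24 arrays and 0.0215 over 6). With Arntl it made up the 2 genes called higher with the 6 arrays alone. Vgll2, a cofactor of TEAD factors, was 6.52, 6.96 and 6.58 against 7.30, 7.64 and 7.45 (0.78 ± 0.211, adjusted p = 0.67). The cadherin Cdh22 (0.75 ± 0.184), the GABA aminotransferase Abat (0.44 ± 0.108) and Thsd7a (0.54 ± 0.142) were likewise higher on each 12-month array.

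The same difference was then set against the ages of the other genotypes. Each genotype has its own arrays, so the age differences share none. For 0 genes did the age difference of Tm180/PLB KO hearts differ from that of NTG, Tm180 or PLB KO hearts at an adjusted p under 0.05 in limma. At an unadjusted p under 0.05 there were 199 (1.25%), 239 (1.5%) and 285 (1.79%). In the same fit, age called 1 gene in NTG hearts (0.00628%), 0 in Tm180 hearts (0%) and 3 in PLB KO hearts (0.0188%). At an unadjusted p under 0.05 these counts were 262 (1.65%), 277 (1.74%) and 889 (5.58%). Across 15918 genes the age differences of Tm180/PLB KO hearts correlated at 0.1998 with those of NTG, 0.0763 with Tm180 and 0.421 with PLB KO hearts (Pearson). Spearman values were 0.158, 0.1806 and 0.2282, in which Tm180 came above NTG hearts. Both are descriptions over genes, which are not independent. Of the 39 genes called lower with the 6 arrays alone, 39 had lower means at 12 months in PLB KO, 31 in NTG and 5 in Tm180 hearts. In the same order, the median age difference over all genes was 0.0232, -0.0044 and -0.0066. On the NF-κB list were 18 of the 39, so these counts do not stand for 39 unrelated genes. For the NF-κB list, drawn up after the values were seen, the medians were -1.08 in Tm180/PLB KO hearts, -0.96 in PLB KO hearts, -0.14 in NTG and 0.21 in Tm180 hearts. For immediate-early genes they were -0.94, -0.77, 0.04 and 0.10, and for glucocorticoid-responsive genes -0.64, -0.40, 0.04 and 0.22. All 3 PLB KO arrays at 4 months had Y-linked transcripts at 7.32 to 7.86 and all 3 at 12 months at 2.98 to 3.54, so sex and age cannot be told apart in that genotype.

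**Figure D5:**
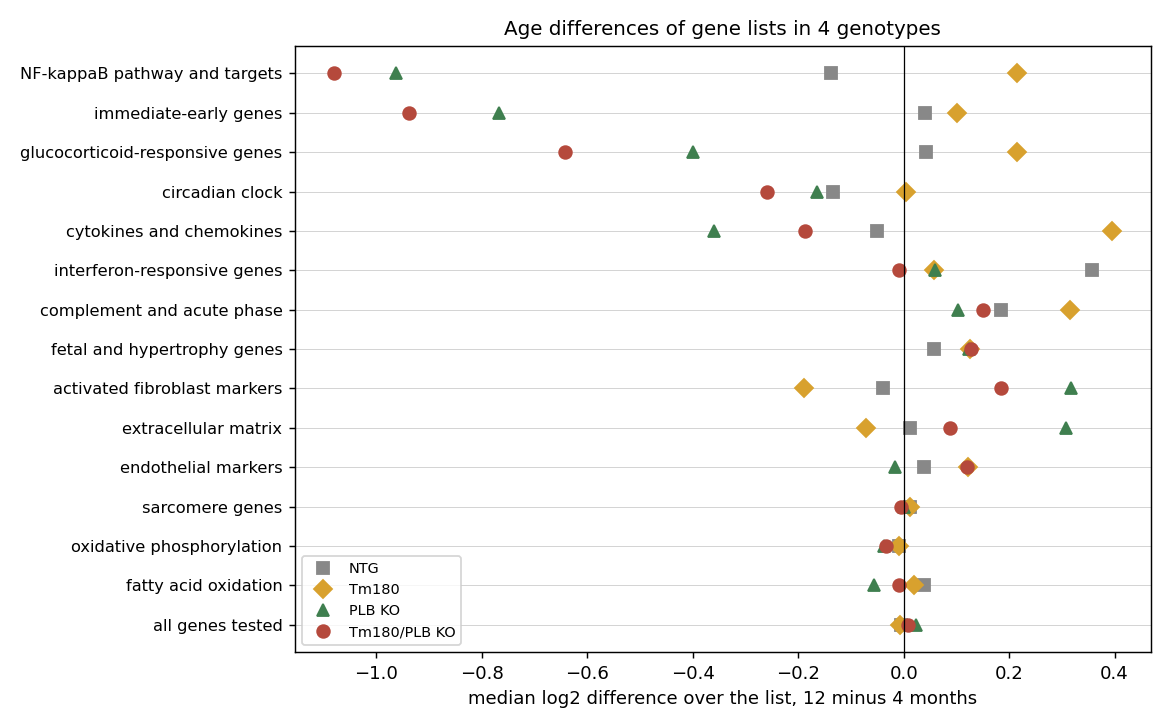
Median difference of 12 minus 4 months (log2, horizontal axis) over the tested members of 14 gene lists and over all genes, in 4 genotypes with 3 arrays per age. Red points (Tm180/PLB KO) and green points (PLB KO) lie far below 0 for the NF-κB, immediate-early and glucocorticoid lists, at -1.08 and -0.96 for the first. The NF-κB list was drawn up after the values were seen.

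For the NF-κB list the mean levels of the genotypes lay further apart at 4 than at 12 months. This list was drawn up after the values were seen. It holds 18 of the 39 genes called lower with the 6 arrays alone, so its means are a description only. The NF-κB list averaged 7.95 ± 0.183 (SD, n = 3) in Tm180/PLB KO hearts at 4 months and 7.75 ± 0.497 in PLB KO hearts, against 6.83 ± 0.754 in NTG and 6.66 ± 0.379 in Tm180 hearts. At 12 months the 4 genotypes lay between 6.63 and 6.89. At 4 months 1 NTG array reached 7.70, within the PLB KO range and within 0.1 of the lowest Tm180/PLB KO array (7.78), while the highest Tm180 array was 7.09. At 12 months the highest NTG array was 7.17 and the highest Tm180 array 7.76. Among single genes, Ramp3 differed from its age difference in NTG hearts by -1.01 ± 0.231, in Tm180 hearts by -0.83 ± 0.231 and in PLB KO hearts by -0.94 ± 0.231 (adjusted p = 1 each). Its 4-month Tm180/PLB KO mean of 7.31 stood above NTG hearts of that age by 0.85 (adjusted p = 0.0349). Ramp3 was picked by comparisons that hold these same arrays, so this p is not independent of the choice. The difference for Slc16a13 was -1.80 ± 0.439 against NTG, -2.03 ± 0.439 against Tm180 and -0.88 ± 0.439 against PLB KO (adjusted p = 1 each). Ucp3, a mitochondrial carrier, gave the smallest p against NTG. It was 6.90, 6.58 and 7.12 at 4 months and 6.63, 6.19 and 6.99 at 12 months in Tm180/PLB KO hearts, which overlapped, and went from 6.66 ± 0.0779 to 8.58 ± 0.446 in NTG hearts (difference of differences -2.19 ± 0.392, adjusted p = 0.27). At 12 months Ucp3 was below NTG hearts by -1.97 (adjusted p = 0.000914). These arrays are part of the difference of differences that picked Ucp3, so the same limit holds for this p. Against PLB KO hearts the interferon-inducible Ifi207 led, with 0.89 in Tm180/PLB KO and -0.73 in PLB KO hearts (1.62 ± 0.355, adjusted p = 1). Against NTG hearts of the same age, 18 genes (0.113%) were called at 4 months and 68 (0.427%) at 12 months.

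Markers of other tissue were checked as well. The atrial gene Myl7 was 5.22, 7.61 and 4.97 at 4 months and 5.51, 4.99 and 6.60 at 12 months, and Myl4 followed the same arrays (7.06, 8.82 and 6.88 against 7.44, 6.93 and 8.80). High values thus sat on replicate 2 at 4 months and replicate 3 at 12 months, not with an age. Over 10 adipocyte markers the mean was 7.18 to 7.40 at 4 months and 6.94 to 7.25 at 12 months, and over 6 erythroid and platelet genes 6.58 to 6.86 and 6.73 to 7.0. Smooth muscle and pericyte markers had a median of 0.10 over 14, cell cycle genes -0.13 over 34 with 4 lower without overlap (11.8%), and interferon-responsive genes -0.01 over 23 with 4 lower without overlap (17.4%), of which Irf1 (-1.63) is also an NF-κB target.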

How the data were processed

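Left ventricular RNA was hybridised to 24 Affymetrix arrays. The authors deposited log2 levels, and the submitters' processing notes name RMA without a version. They name no genome build. Of 35557 probe sets, 21789 have 1 gene symbol, 1621 several and 12147 none, and 21698 were matched by Entrez number to RefSeq (GRCm38.p6) for current symbols. For the 999 genes with several probe sets the highest by mean was kept. Genes above the 25th percentile of all values (4.83) on at least 3 arrays were tested (15918 of 19938).

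Age differences were tested in limma 3.58.1 (R 4.3.3) with 8 group means over 24 arrays, no block, and Benjamini-Hochberg adjustment over all genes tested, at adjusted p under 0.05. Adjusted p-values in the text come from that fit unless the 6 arrays alone are named. Group lists cover 43 sets plus an NF-κB list added after values were seen. The arrays, the members and the lists were all chosen with earlier results of these data known. Named genes are Pln, Tpm1, genes called, else up to 10 with the smallest p in each direction, 3 per difference between genotypes, and per list up to 2 to 4 members; further list members, neighbours of Slc16a13 and genes called with the 6 arrays alone were named after their values were seen. Predicted genes were not named. The fit was tested on simulated data. P-values measure the spread between these arrays, whose separate animals are not stated. Alternatives covered the replicate block, normalization, filters, array weights and leaving out arrays.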

Additional observations from a re-analysis of the deposited data

How the results depend on the processing

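The count of 1 gene between the ages became 2 with the replicate block, with median centring, with quantile normalization and with array weights, 41 with the 6 arrays alone and 0 without both arrays of replicate 2 (chosen after seeing the data). Leaving out 1 array at a time gave 0 to 3. Deviations of same-numbered arrays correlated at 0.5716, 0.0652 and 0.4486 for numbers 1, 2 and 3. Between numbers 1 and 3 across the ages they correlated at -0.4829 and -0.4561. All 6 arrays correlated best with their own number. The numbers were not taken to pair the hearts, and the main fit held no block for them. The block gave 1 gene against NTG hearts, as did array weights, where 0 were called otherwise (0 to 0 leaving out 1 array). Leaving out 1 array gave 0 to 1 against Tm180 and 0 to 0 against PLB KO hearts, and it was 1 without Tm180 replicate 1 of either age. The cause was not tested.

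Slc16a13 stayed between -2.243 and -1.9023 with 1 array left out and kept its call in 24 of 35 settings (adjusted p 0.004134 to 0.4347). It was -2.1133 without both arrays of replicate 2, where the call was lost with 2 fewer arrays. The glucocorticoid median was -1.041 in that setting, and -0.9484 to -0.5435 with 1 array left out. Ranges of the medians with 1 array left out were -1.3428 to -0.6772 (immediate-early), -1.1816 to -0.9886 (NF-κB), -0.4256 to -0.1875 (cytokines), -0.2864 to -0.2366 (clock), 0.0691 to 0.2002 (hypertrophy), -0.0027 to 0.1633 (matrix), 0.0331 to 0.2271 (complement), -0.0867 to 0.015 (oxidative phosphorylation) and -0.0478 to 0.0574 (fatty acid oxidation).

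Of 101 further genes, 13 were called under some setting, and 11 sign changes occurred, in genes with no call. Hebp2 was -0.0597 without replicate 3 and 0.1513 without replicate 2 at 12 months. Dnajb1 was 0.0642, -0.9896 and 0.1204 without replicates 1, 2 and 3 at 12 months. Without both arrays of replicate 2, C7 was -0.0278, Car3 0.0378, Pck1 0.0871, Xist 0.1064 and Eif2s3y -0.4274. Without replicate 2 at 12 months Xist was 0.1894 and Eif2s3y -0.4132, and without replicate 3 at 12 months they were -2.7618 and 2.6498. With Y-linked level as a covariate Eif2s3y was -0.0689. That covariate is a mean that includes Eif2s3y itself, so a value near 0 follows from how it was built. Array weights of the 6 arrays ran from 0.752 to 1.974. Probe sets near the dim limit have little signal over background.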

Other observations

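Probe sets without exactly 1 gene symbol stayed out of the comparison above. Of 13768 such probe sets, 9057 were above the dim limit on at least 3 arrays. In the same limma fit 0 of them were called between the ages, and 275 had an unadjusted p under 0.05.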
